A study of Rattus norvegicus with 18 samples.

Results

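The expression of 10 chemokine genes was followed in the retina and in the retinal pigment epithelium with its choroid (RPE/choroid) of aging rats. The genes were taken by name: Cxcl9, Cxcl10, Cxcl11, Cxcl1, Cxcl12, Cxcl16, Ccl2, Ccl5, Ccl27 and Cx3cl1. All 10 named genes were found, among 32285 genes counted in retina and 32552 counted in RPE/choroid (31938 shared). Bulk RNA-seq was made from 18 libraries of female wild-type Fischer 344 rats, an albino inbred strain, with 3 libraries for each of 3 groups in each of the 2 tissues. By the labels, young rats were 4 months old and aged rats 24 months old; parts of the paper's text give the young rats a lower age. The third group was also 24 months old and had drunk water containing 8-aminoguanine (8-AG) for 8 weeks, at a dose of 5 mg/kg/day. 8-AG is a guanine derivative that inhibits purine nucleoside phosphorylase.

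Chemokines are small secreted proteins that direct the movement of leukocytes by binding G protein-coupled receptors on the cell surface. Some, such as Cxcl12, are made constitutively and position cells in healthy tissue, while others, such as the interferon-induced Cxcl9, Cxcl10 and Cxcl11, are made when a tissue is inflamed. In the eye, glia, microglia, the pigment epithelium and stromal cells can all release them, and the choroid carries its own resident macrophages and lymphocytes.

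Cxcl11, Cxcl10 and Cxcl9 are consecutive protein-coding genes on chromosome 14 in the RefSeq annotation of the GRCr8 build, and Cxcl1 is on the same chromosome. The RefSeq promoter windows, which run from 250 bases before to 50 after the gene start, are given below for these 4 genes and for Cxcl16. The first 3 are shown because these neighbours share the receptor Cxcr3, Cxcl1 because of its values in RPE/choroid and Cxcl16 because it rose in the aged retina. All windows are from GRCr8 and are written 5′ to 3′ on the strand of the gene. Capitals mark matches to an interferon-stimulated response element (ISRE, searched as GAAA, then any 2 bases, then GAAA), to a STAT-binding GAS element (searched as TTCNNNGAA) and to the NF-kappaB consensus of 10 bases, each on both strands.
Cxcl11, chr14:15973478-15973777, plus strand: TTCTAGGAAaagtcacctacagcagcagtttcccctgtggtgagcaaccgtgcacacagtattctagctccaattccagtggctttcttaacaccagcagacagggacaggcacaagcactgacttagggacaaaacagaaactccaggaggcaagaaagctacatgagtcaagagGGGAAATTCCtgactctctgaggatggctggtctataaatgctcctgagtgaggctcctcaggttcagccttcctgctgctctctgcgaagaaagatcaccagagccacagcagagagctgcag
Cxcl10, chr14:15988816-15989115, plus strand: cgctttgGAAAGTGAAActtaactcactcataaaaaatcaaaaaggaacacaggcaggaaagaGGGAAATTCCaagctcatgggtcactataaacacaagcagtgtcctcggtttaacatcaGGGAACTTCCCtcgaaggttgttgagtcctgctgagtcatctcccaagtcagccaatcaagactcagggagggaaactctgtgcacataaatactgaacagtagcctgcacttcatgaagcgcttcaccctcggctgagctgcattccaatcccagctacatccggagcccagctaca
Cxcl9, chr14:16006916-16007215, plus strand: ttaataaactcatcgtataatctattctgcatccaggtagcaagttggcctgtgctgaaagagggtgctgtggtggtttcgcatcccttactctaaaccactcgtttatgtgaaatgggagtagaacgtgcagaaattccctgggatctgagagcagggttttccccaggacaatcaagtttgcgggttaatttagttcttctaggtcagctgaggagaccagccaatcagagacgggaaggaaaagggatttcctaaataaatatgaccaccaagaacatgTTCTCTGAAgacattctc
Cxcl1, chr14:17479272-17479571, minus strand: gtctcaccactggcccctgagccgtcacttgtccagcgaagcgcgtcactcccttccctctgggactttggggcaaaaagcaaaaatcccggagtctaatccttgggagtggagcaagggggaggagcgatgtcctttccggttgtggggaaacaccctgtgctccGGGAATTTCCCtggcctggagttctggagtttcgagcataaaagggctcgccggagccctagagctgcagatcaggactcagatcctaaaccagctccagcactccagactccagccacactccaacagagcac
Cxcl16, chr10:55669901-55670200, minus strand: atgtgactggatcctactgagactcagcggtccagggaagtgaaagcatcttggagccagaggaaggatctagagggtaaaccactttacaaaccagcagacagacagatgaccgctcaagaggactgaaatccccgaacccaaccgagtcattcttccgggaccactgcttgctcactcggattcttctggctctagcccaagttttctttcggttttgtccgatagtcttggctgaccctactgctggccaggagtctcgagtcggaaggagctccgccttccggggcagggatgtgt

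An ISRE match was present in the Cxcl10 window, beginning at base 8 of the window, against 3.92% of the 33469 RefSeq promoter windows. A GAS match was found in the Cxcl11 window, at its first base, and in the Cxcl9 window, where it lies downstream of the gene start; 8.87% of all windows hold one. The NF-kappaB consensus was matched in the windows of Cxcl10, Cxcl11 and Cxcl1, against 7.51% of all windows. Of the 3 matches in Cxcl10, beginning 187, 128 and 127 bases before the start, the last 2 overlap on opposite strands, as do both matches in Cxcl1. No match to these letters occurred in the windows of Cxcl16, Cxcl12, Ccl27 and Cx3cl1. The table holds windows for 8 of the 10 genes, and none for Ccl2 and Ccl5. A match describes the letters and is not evidence of binding.

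The retina libraries held 12283458 to 15644346 counts and the RPE/choroid libraries 28573828 to 48203050. Levels are given as CPM, read counts scaled to library size after TMM normalization over the 9 libraries of a tissue. They are not corrected for gene length and library preparation differed between tissues, so levels are compared neither between genes nor between tissues. A count of 0 in a retina library allows a level of up to 0.191 to 0.244 CPM, depending on the library, as a counting limit of 3 reads. The 8-AG-treated retina libraries are labelled as total RNA and the others as polyA RNA, so that this label and the treatment cannot be told apart. In RPE/choroid, young libraries 1 and 2 share a number in their labels, as do aged libraries 1 and 2, marked left and right. The labels do not say which libraries come from 1 animal, so p-values measure the spread between these libraries, which may be partly technical.

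The markers of the pigment epithelium, 8 genes, summed to 22.0 to 334 CPM in the retina libraries and to 5325 to 18044 CPM in the RPE/choroid libraries. These ranges describe the libraries of each tissue and are not compared. 8-AG-treated RPE/choroid library 1 stood apart from the others. The summed level of 9 rod photoreceptor markers in it was 49207 CPM, against 540 to 18042 in the other 8 RPE/choroid libraries, and that of 9 surface epithelium markers 2056 CPM. The surface epithelium sum was also above all young (17.2 to 33.2 CPM) and aged libraries (19.4 to 26.6 CPM) in treated libraries 2 and 3, at 35.4 and 319 CPM, so it moves with the treated group also without library 1. It had the lowest sums of the 9 for fibroblast markers (1078 CPM, against 4241 to 11077) and for T and NK cell markers (15.7 CPM, against 113 to 219). It also had the lowest level of 8 of the 10 chemokines and the highest level of Ccl27. In bulk samples, fewer cells of a type and less RNA per cell cannot be told apart. The tested chemokine differences that use the treated RPE/choroid are therefore given with and without this library.

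**Figure D1:**
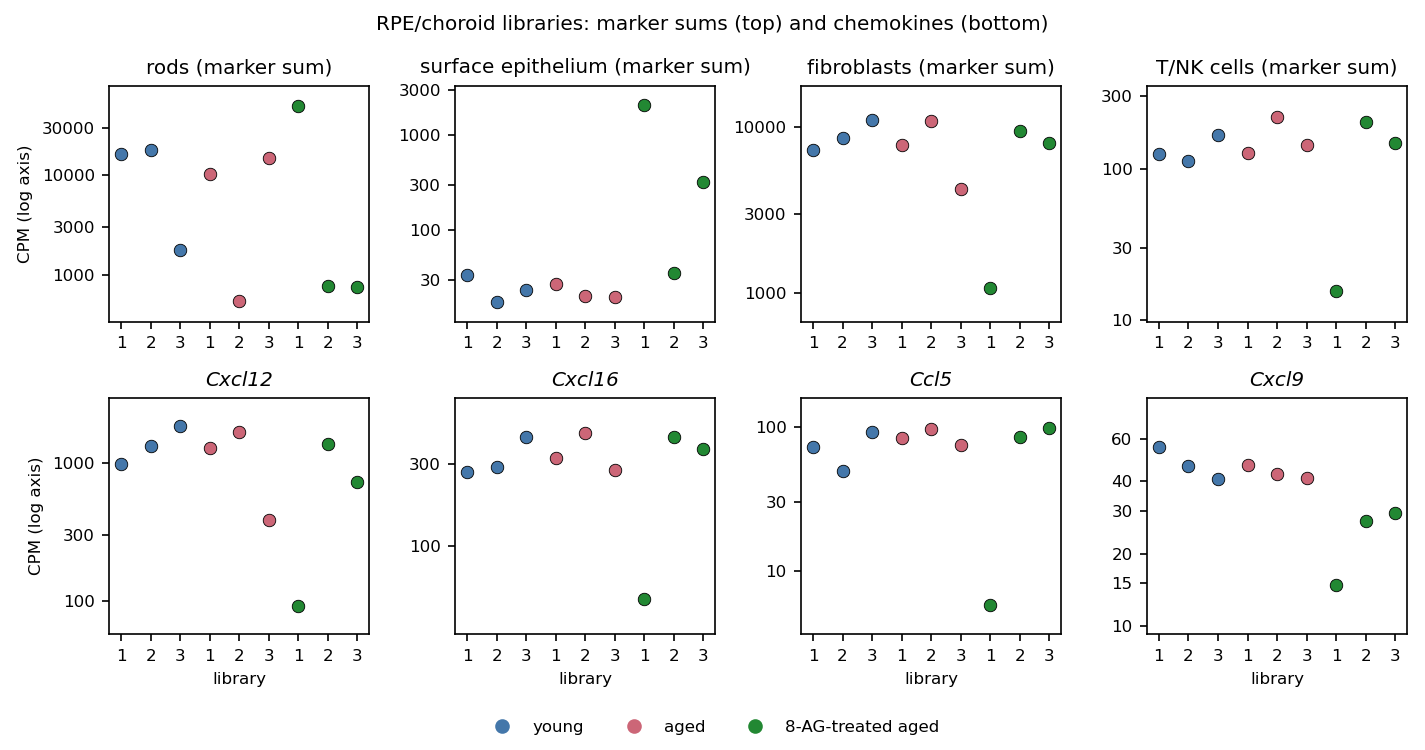
Summed CPM of marker genes (top) and CPM of 4 chemokines (bottom) in each of the 9 RPE/choroid libraries, on log axes, with 1 point per library and colours for the 3 groups. 8-AG-treated library 1 has the highest rod sum, 49207 CPM, and the lowest Cxcl12 (91.4 CPM), Cxcl16 (48.9 CPM), Ccl5 (5.87 CPM) and Cxcl9 (14.8 CPM).

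In the aged retina, Cxcl10 and Cxcl16 rose against the young retina. A gene was taken to rise or fall when its adjusted p was under 0.05 in edgeR's quasi-likelihood test, with Benjamini-Hochberg adjustment over all genes tested. Of the 10 chemokines, 5 passed the filter on low counts in this comparison, and 2 of these 5 passed the test, both upwards. Of all 14588 genes tested, 14.5% passed it, 7.29% upwards. By the study's rule for differentially expressed genes (DEGs), more than a 1.5-fold difference at an unadjusted P below 0.05, the same 2 genes qualified, against 8.84% of all genes. Cxcl10 passed the filter only through the aged libraries, so the count over the members that passed is given as a description.

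Cxcl10, an interferon-induced ligand of Cxcr3 that attracts activated T cells, was at 0.308, 0.075 and 0.204 CPM in the 3 young retinas and at 2.17, 3.89 and 7.13 CPM in the 3 aged retinas. Every aged library was above every young one, and the young values rest on 4, 1 and 3 counts. The log2 fold change was 4.44 (SE 0.60, n = 3 per group, edgeR adjusted p = 0.0022), a fitted 21.7-fold difference. The ratio of the summed counts, 192 against 8, was 22.9 after scaling for depth, with an exact 95% interval of 11.4 to 53.8 that covers counting error only.

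Cxcl9 and Cxcl11, the other two ligands of Cxcr3, did not pass the filter. Cxcl9 was at 0.231, 0 and 0 CPM in the young retinas and at 0.233, 1.85 and 0.762 CPM in the aged ones, and Cxcl11 was at 0, 0 and 0.068 CPM in the young and 0.0776, 0.957 and 0.623 CPM in the aged. For both genes aged library 1 held no more reads than the highest young library (3 against 3 for Cxcl9, 1 against 1 for Cxcl11), and aged library 2 was highest. The ratio of aged to young counts was 13.7 for Cxcl9 (43 against 3 counts, exact 95% interval 4.38 to 68.9) and 23.8 for Cxcl11 (25 against 1, interval 3.90 to 979). Both intervals cover counting error only. In the fit without the filter, in which 11.2% of 20991 genes passed the test, edgeR's adjusted p was 0.077 for Cxcl9 and 0.015 for Cxcl11. The call of Cxcl11 was lost without young library 1 (adjusted p = 0.066), young library 2 (0.083) or aged library 2 (0.090). With 1 library left out, the adjusted p of Cxcl9 ran from 0.0061 (without aged library 1) to 0.22 (without young library 2) and was over 0.05 in the other fits. Its log2 fold change, 3.57 with all libraries, ran from 2.63 without aged library 2 to 6.80 without young library 1, which leaves the young retinas at 0 reads.

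Cxcl1, a ligand of Cxcr2 that attracts neutrophils, was at 0.231, 0.075 and 0.136 CPM in the young and at 0.621, 0.255 and 0.0693 CPM in the aged retinas. The groups overlapped, on 1 to 8 counts per library, and the log2 fold change without the filter was 1.02 (SE 0.86, edgeR adjusted p = 0.54).

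Cxcl12, which signals through Cxcr4 and Ackr3 and retains stem cells and leukocytes in tissue, was at 19.9, 17.6 and 14.4 CPM in the young retinas and at 15.7, 27.1 and 16.6 CPM in the aged. The groups overlapped, with aged library 2 the highest, and the log2 fold change was 0.20 (SE 0.24, 95% interval -0.38 to 0.78, edgeR adjusted p = 0.64).

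Cxcl16 and Cx3cl1 are the chemokines made as membrane-bound proteins that proteases such as Adam10 and Adam17 can release. Cxcl16, the ligand of Cxcr6, was at 4.08, 4.58 and 3.61 CPM in the young retinas and at 7.68, 10.1 and 6.72 CPM in the aged. All aged libraries were above all young ones, and the log2 fold change was 1.01 (SE 0.19, edgeR adjusted p = 0.0078), or 2.01-fold. Cx3cl1, known as fractalkine, is made by neurons and signals to microglia through Cx3cr1. Its levels were 44.4, 39.4 and 47.4 CPM in the young and 50.1, 48.7 and 51.7 CPM in the aged retinas. The groups did not overlap, but the log2 fold change of 0.20 (SE 0.08) gave an edgeR adjusted p of 0.12.

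Among the CC chemokines, Ccl2, which attracts monocytes through Ccr2, was at 0, 0 and 0.136 CPM in the young retinas and at 1.32, 1.28 and 0.346 CPM in the aged. All aged libraries were above the young ones, with 17, 20 and 5 counts against 0, 0 and 2. The count ratio was 20.0 (exact 95% interval 5.21 to 171, counting error only), and the fit without the filter gave an edgeR adjusted p of 0.0025. Its log2 fold change there was 4.11, and 3.62 to 6.78 with 1 library left out (edgeR adjusted p = 3.5e-04 to 0.022). Ccl2 was not in the filtered fit, so it is not counted among the genes that rose. Ccl5, which T cells make among others and which attracts T cells and monocytes, was at 0, 0 and 0.068 CPM in the young retinas and at 0.0776, 2.55 and 0.0693 CPM in the aged. Aged library 2 carried 40 of the 42 aged counts, and the adjusted p without the filter was 0.35. Ccl27, a ligand of Ccr10 best known from skin, was at 3.47, 2.78 and 2.99 CPM in the young and 4.11, 4.47 and 5.12 CPM in the aged retinas, without overlap. Its log2 fold change was 0.57 (SE 0.19, edgeR adjusted p = 0.078).

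In all, 8 of the 10 chemokines had every aged retina library above every young one, the exceptions being Cxcl1 and Cxcl12. Of the genes in the fit without the filter, 14.2% showed such a separation upwards. For Cxcl9, Cxcl11 and Ccl5 the separation comes from library size alone, since the lowest aged and the highest young library held the same number of reads.

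**Figure D2:**
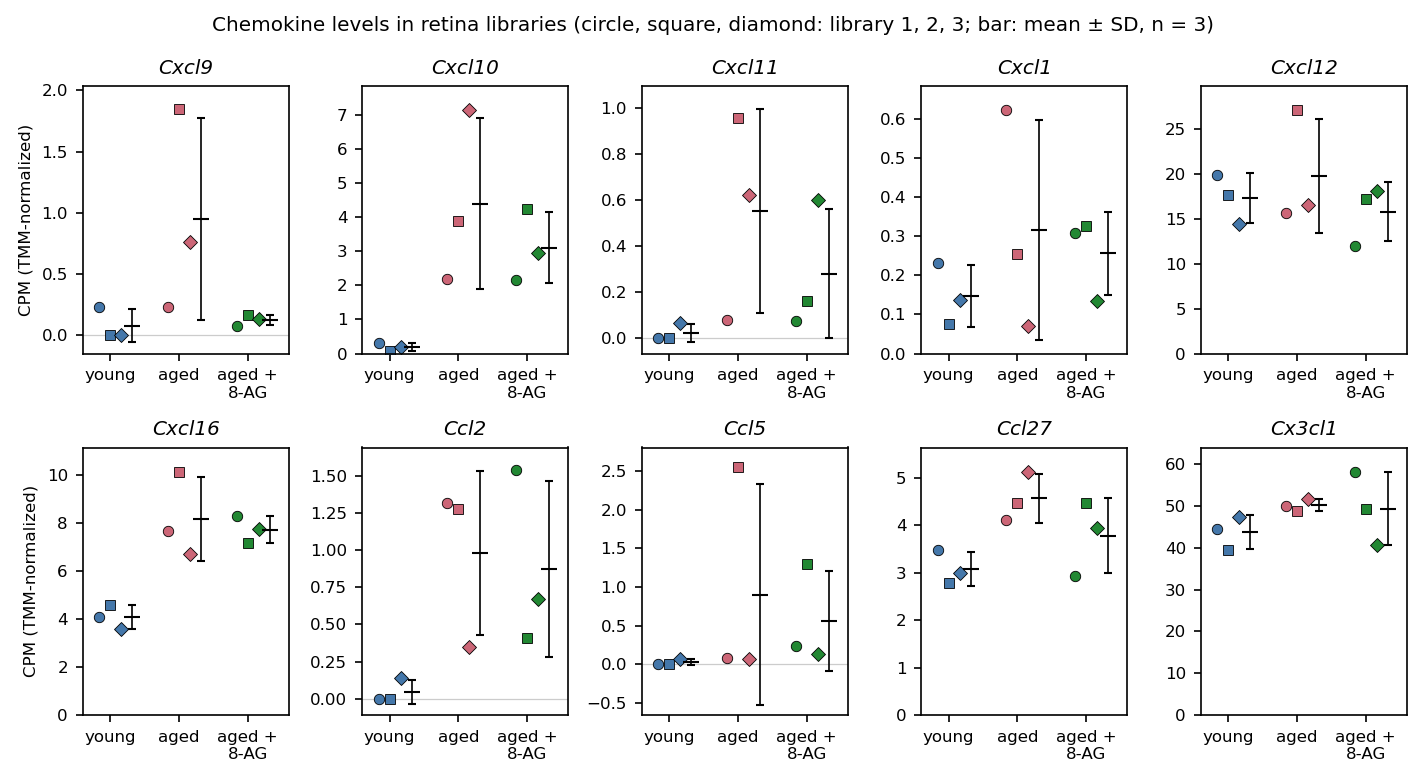
CPM of the 10 chemokines in the 9 retina libraries, with 1 marker per library and the mean ± SD of each group beside the points, on linear axes. Cxcl10 lies at 0.075 to 0.308 CPM in the young and 2.17 to 7.13 CPM in the aged retinas, while Ccl5 is above 2 CPM in aged library 2 alone.

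Microglia markers moved with these levels. The summed level of 13 microglia and macrophage markers was 39.5 to 42.1 CPM in the young retinas, 125 to 221 CPM in the aged and 148 to 154 CPM in the 8-AG-treated ones, and 11 of the 11 tested rose in the aged, against 7.29% of all genes. The marker list was chosen with earlier results of these data known, so this count is a description. The sum of 9 T and NK cell markers was 0.816 to 1.002 CPM in the young, 1.63 to 7.72 CPM in the aged and 1.92 to 3.25 CPM in the treated retinas, and none of these 9 passed the filter in aged against young retina. No marker of either list was at 0 in all retina libraries. The highest value of each sum was in aged library 2, the library with the highest Cxcl9, Cxcl11, Cxcl12, Cxcl16 and Ccl5. Cxcl10 did not follow these sums among the aged libraries, since it was highest in aged library 3, where the microglia sum was lowest. The B and plasma cell sums of 0.675 to 1.31 CPM in the young and 0.510 to 1.01 CPM in the aged retinas overlapped, as did the neutrophil sums of 2.1 to 2.70 CPM and 2.42 to 5.49 CPM. The rod marker sum was 49734 to 54724 CPM in the young and 30353 to 35136 CPM in the aged retinas, and that of Mueller glia and astrocytes 3814 to 3981 and 3504 to 3665 CPM. The sum of 7 lens markers was 2762, 6099 and 139 CPM in the young and 6.16 to 6.52 CPM in the aged retinas, with 1720, 8.29 and 11.0 CPM in the treated ones. The part of cell composition in the chemokine levels was not tested.

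Of the receptors, Cx3cr1, the microglial receptor of Cx3cl1, rose in the aged retina, from 3.70, 3.53 and 3.40 CPM in the young to 6.29, 10.02 and 6.30 CPM in the aged (log2 fold change 1.09, SE 0.21, edgeR adjusted p = 0.0082). Ccr9, the receptor of Ccl25, fell from 7.86, 9.98 and 11.3 CPM to 5.90, 2.74 and 3.88 CPM (log2 fold change -1.23, adjusted p = 0.016). Of 22 receptors listed, 18 had an identifier and 5 passed the filter, of which these 2 passed the test, against 14.5% of all genes. Ackr3 was at 12.9 to 18 CPM in the young and 17.4 to 20.5 CPM in the aged, and Ccr10 at 3.60 to 3.88 and 3.67 to 4.47 CPM, and neither passed. Cxcr3, the receptor of Cxcl9, Cxcl10 and Cxcl11, held 0 to 2 counts in each retina library. Cxcr2 held 0 to 4 counts, Cxcr4 0 to 12, Cxcr6 2 to 10, Ccr1 0 to 14 and Ccr3 0 to 3. Ccr2, the receptor of Ccl2, was above 0 in 2 of the 9 retina libraries in the authors' normalized table.

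Of 24 other chemokines listed, 21 had an identifier and 3 passed the filter. Of all genes tested, 14.5% passed the test. Cxcl13, a B cell attractant, rose from 2.39, 2.40 and 2.99 CPM in the young retinas to 10.5, 14.2 and 6.44 CPM in the aged (log2 fold change 2.0, SE 0.29, edgeR adjusted p = 0.0030). Ccl9 (adjusted p = 0.050) did not pass, nor did Cxcl14.

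Of 15 tested genes of interferon signalling, the pathway that induces Cxcl9, Cxcl10 and Cxcl11, 9 rose in the aged retina and none fell, against 7.29% of all genes that rose. Among them were Socs3, an inhibitor of JAK-STAT signalling (log2 fold change 3.75), the transcription factors Irf7 (2.52), Irf8 (1.88), which is also a macrophage gene, Irf9 (1.39) and Irf1 (0.80). The median log2 fold change of the 15 was 0.44, against 0.00 for all genes tested. Of 11 tested genes of TNF, IL-1 and NF-kappaB signalling, Nfkb2 (1.36), Il1r1 (1.32), Tnfrsf1a (1.19) and Myd88 (1.05) rose and Nfkbia, an NF-kappaB inhibitor (-0.35), fell. The median of these 11 was 0.28. Both lists were chosen with earlier results of these data known, so their counts and medians are a description and are not read against the shares. None of the 4 tested proteases that cleave chemokines passed the test with edgeR, and 1, Mmp2, had an unadjusted P under 0.05.

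**Figure D3:**
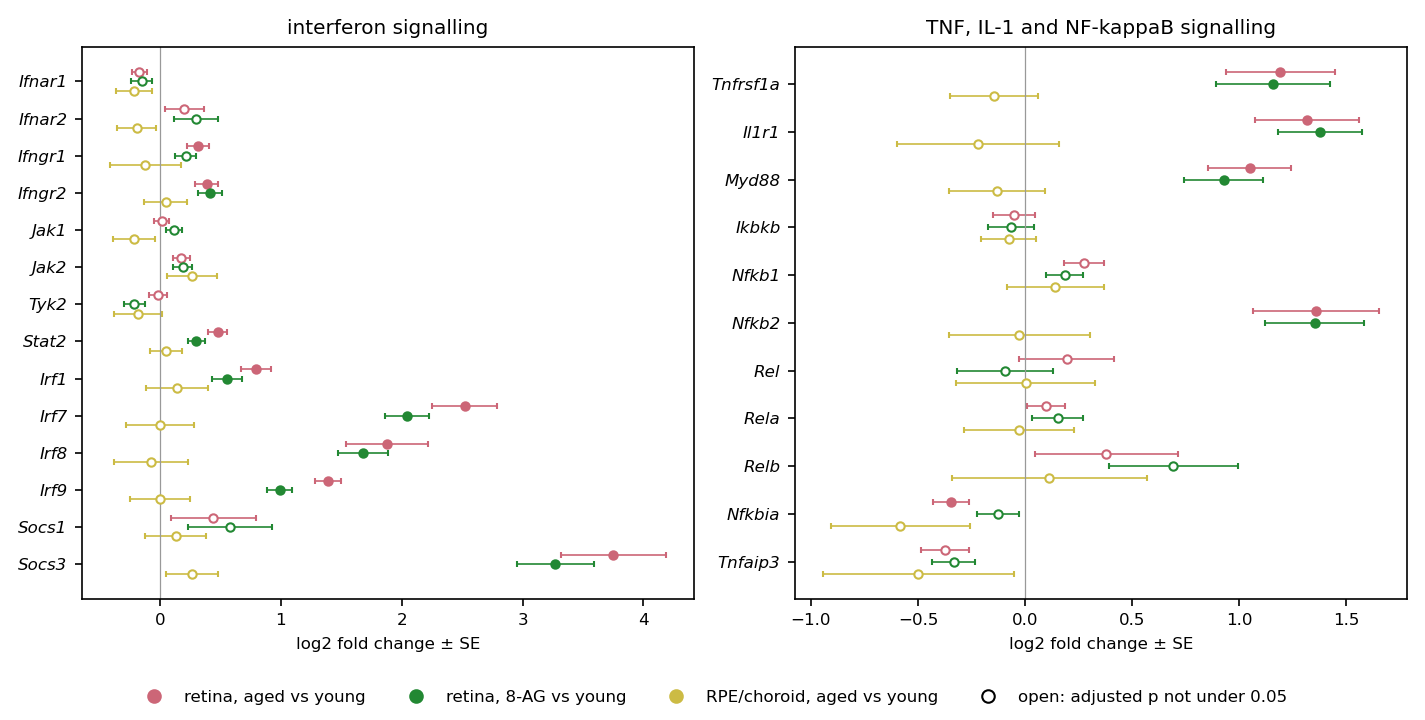
Log2 fold change ± SE of tested genes of interferon signalling (left, 1 of the 15 not shown) and of TNF, IL-1 and NF-kappaB signalling (right), for aged and 8-AG-treated against young retina and aged against young RPE/choroid, with filled points for an adjusted p under 0.05. Socs3 is at 3.75 in aged and 3.27 in 8-AG-treated against young retina, and every RPE/choroid point is open.

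Across the 9 retina libraries, the genes whose log2 CPM followed that of Cxcl10 most closely were LOC690000 (Pearson r = 0.996), Ifit3 (0.985), Rsad2 (0.981), Map3k5 (0.980) and Trim21 (0.978), out of 13125 genes compared. Ifit3, Rsad2 and Trim21 are known as interferon-stimulated genes. Among the chemokines abundant enough to compare, r with Cxcl10 was 0.840 for Cxcl16, 0.832 for Ccl27, 0.527 for Cx3cl1 and 0.118 for Cxcl12. These 9 points share 3 groups, so that any gene differing between young and aged libraries gives a high r.

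Whether 8-AG changed chemokine levels in the aged retina was asked by comparing treated with untreated aged libraries. None of the 6 chemokines tested rose or fell with edgeR, none had an unadjusted P under 0.05 (3.67% of all genes did), and DESeq2 also gave 0 calls. Of all 14631 genes tested, 0.0205% passed the test and 0.957% were DEGs. The adjusted p was 0.996 for each of the 6.

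Cxcl10 was at 2.15, 4.23 and 2.94 CPM in the treated retinas, overlapping with the untreated aged ones at 2.17 to 7.13 CPM. The log2 difference was -0.51 (SE 0.43, 95% interval -1.50 to 0.48). Cxcl16, at 8.30, 7.16 and 7.76 CPM, differed by -0.08 (interval -0.48 to 0.31), Cx3cl1, at 58.2, 49.3 and 40.7 CPM, by -0.02 (interval -0.29 to 0.24), and Ccl27, at 2.92, 4.47 and 3.94 CPM, by -0.28 (interval -0.75 to 0.20). Cxcl12 was at 12.0, 17.2 and 18.1 CPM (difference -0.33, interval -0.90 to 0.24), and Ccl2 at 1.54, 0.407 and 0.669 CPM (difference -0.17, interval -1.50 to 1.16). All 6 fitted differences were below 0, while 49% of all genes tested were above 0, and each interval includes 0.

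Cxcl9 did not pass the filter. It was at 0.0769, 0.163 and 0.134 CPM in the treated retinas, on 1, 2 and 2 counts, and every treated library was below every untreated aged one. This was the one chemokine of the 10 with such a separation in this comparison, against 3.86% of genes separated downwards without the filter. The margin is thin, since aged library 1 held 3 reads, which is also the counting limit used here. The ratio of counts, 5 against 43, was 0.124 (exact 95% interval 0.0384 to 0.313), and the fit without the filter gave an unadjusted P of 0.0017 and an edgeR adjusted p of 0.60, which made it a DEG, as 1.52% of genes were. Aged library 2 held 29 of the 43 counts, and without it the log2 difference of Cxcl9 was -1.94 (unadjusted P = 0.034) in place of -2.87. Cxcl11 (0.0769, 0.163 and 0.602 CPM), Cxcl1 (0.307, 0.325 and 0.134 CPM) and Ccl5 (0.231, 1.30 and 0.134 CPM) overlapped with the untreated aged retinas. Of the other lists, Irf9 (log2 difference -0.40, unadjusted P = 0.0047) and Ccl6 (1.29, unadjusted P = 0.018) were the genes with an unadjusted P under 0.05, and neither passed the test. Ccl6 had not passed the filter in aged against young retina and was tested here through the treated libraries. The summed level of the surface epithelium markers was 16.5 to 36.8 CPM in the treated and 4.36 to 8.04 CPM in the untreated aged retinas, the lens sum was also higher in every treated library, and the part of composition was not tested.

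Against the young retina, the treated retina gave the same 2 calls as the untreated aged retina did, and both comparisons use the same young libraries. Besides the microglia and the T and NK cell sums, those of neutrophils (3.54 to 8.21 CPM, against 2.1 to 2.70), pigment epithelium (154 to 334 CPM, against 22.0 to 136) and surface epithelium (16.5 to 36.8 CPM, against 2.65 to 4.85) were higher in every treated than in every young retina. Those of rods (32306 to 41495 CPM) and of Mueller glia and astrocytes (3457 to 3526 CPM) were lower, and the part of composition was not tested. Cxcl10 rose by a log2 fold change of 3.93 (SE 0.46, edgeR adjusted p = 6.2e-04) and Cxcl16 by 0.93 (SE 0.17, adjusted p = 0.0060). Of 5 chemokines tested 2 passed, against 14.9% of the 14542 genes. Cxcl10 passed the filter only through the treated libraries, so this count too is a description. Of the 10, 5 had every treated library above every young one (Cxcl10, Cxcl11, Cxcl16, Ccl2 and Ccl5), against 13.5% of genes without the filter. For Cxcl11 this separation comes from library size alone, since treated library 1 and young library 3 each held 1 read. In the fit without the filter, in which 11.2% of genes passed, the adjusted p was 0.0065 for Ccl2, 0.046 for Ccl5, 0.12 for Cxcl11 (0.045 without treated library 1) and 0.78 for Cxcl9. The count ratio of Ccl5 was 21.4 (21 against 1 counts, exact 95% interval 3.44 to 884). Its adjusted p was over the threshold without treated library 2, which holds 16 of the 21 counts (0.42), and without any of the young libraries (0.13 to 0.18). Cx3cr1 (log2 fold change 0.97), Ackr3 (0.48), Cxcl13 (2.06) and Ccl6 (2.61), 8 of the 15 interferon signalling genes and 4 of the 11 NF-kappaB genes rose, against 7.78% of all genes, and Ccr9 (-1.33) fell. Ccl6 had not passed the filter in aged against young retina and entered this fit through the treated libraries, so its rise is a description. The counts of the lists, chosen with earlier results of these data known, are a description too.

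In RPE/choroid all 10 chemokines passed the filter in every comparison, and none passed the test with edgeR in any. Of all genes, 0% passed in each of the 3 comparisons, and DESeq2 also called none of the 10. The adjusted p was 0.9998 or more throughout, and the changes below are described by unadjusted P and the DEG rule.

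Between aged and young RPE/choroid, Cxcl1 and Ccl27 were DEGs, 2 of 10 chemokines against 1.35% of the 16047 genes, 0.717% upwards. The number with an unadjusted P under 0.05 was also 2, against 2.13% of genes, and by DESeq2 Ccl2 was a DEG as well. The median log2 fold change of the 10 was 0.25, against 0.02 for all genes, with 8 of 10 above 0, against 53% of genes.

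Cxcl1 was at 1.2, 0.918 and 1.43 CPM in the young and at 2.29, 2.81 and 3.42 CPM in the aged libraries, without overlap. Its log2 fold change was 1.26 (SE 0.32, unadjusted P = 0.0074), and that P was 0.012 to 0.032 when each library was left out in turn. The summed level of 6 neutrophil markers was 9.23 to 16.7 CPM in the young and 17.4 to 31.9 CPM in the aged libraries, and its part in the result was not tested. Ccl27 was at 2.44, 1.84 and 1.26 CPM in the young and at 3.62, 2.51 and 7.35 CPM in the aged libraries. The groups were separate by a narrow margin, between 2.44 and 2.51 CPM, with aged library 3 the highest. The log2 fold change was 1.28 (SE 0.49, unadjusted P = 0.039), and it was 0.74 (unadjusted P = 0.13) without aged library 3. Leaving out young library 2, young library 3 or aged library 1 also gave a P over 0.05 (0.10, 0.12 and 0.059). With libraries that share a label number summed, the unadjusted P was 0.041 for Cxcl1 and 0.061 for Ccl27, and with the replicate number as a block 0.022 and 0.12. With all 3 groups in one fit neither gene was a DEG (unadjusted P = 0.087 for Cxcl1 and 0.070 for Ccl27). The third chemokine without overlap was Ccl2, at 12.7, 20.7 and 19.9 CPM in the young and 22.9, 23.0 and 54.4 CPM in the aged libraries, with a log2 fold change of 0.91 (SE 0.40, unadjusted P = 0.066). Of all genes, 2.72% were separated upwards in this comparison. Aged library 3, the highest for Cxcl1, Ccl27, Ccl2 and Cxcl11, was the lowest of the 6 for Cxcl12 (389 CPM) and for the fibroblast sum (4241 CPM). The endothelium sum was 2688 to 3862 CPM in the young and 1798 to 2530 CPM in the aged libraries, without overlap, and the part of composition was not tested.

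The Cxcr3 ligands overlapped between young and aged RPE/choroid. Cxcl9 was at 55.4, 46.5 and 40.7 CPM in the young and 46.9, 43.0 and 41.2 CPM in the aged libraries (log2 fold change -0.12, 95% interval -0.49 to 0.24). Cxcl10 was at 3.61, 14.0 and 6.58 CPM against 10.7, 8.01 and 9.63 CPM (0.23, interval -0.98 to 1.44), and Cxcl11 at 1.77, 3.51 and 1.30 CPM against 3.42, 2.36 and 4.97 CPM (0.70, interval -0.48 to 1.88). The spread of Cxcl10 among the young libraries exceeded the difference between the group means.

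Cxcl12 was at 981, 1338 and 1855 CPM in the young and 1292, 1702 and 389 CPM in the aged RPE/choroid (log2 fold change -0.30, interval -1.67 to 1.07). Cxcl16, at 270, 290 and 434 CPM against 327, 454 and 279 CPM, changed by 0.09 (interval -0.57 to 0.75), and Cx3cl1, at 352, 367 and 465 CPM against 280, 585 and 342 CPM, by 0.03 (interval -0.71 to 0.77). Ccl5 was at 72.4, 49.2 and 92.4 CPM in the young and 84.7, 97.1 and 75.4 CPM in the aged (0.26, interval -0.33 to 0.86). All 4 overlapped between the groups.

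**Figure D4:**
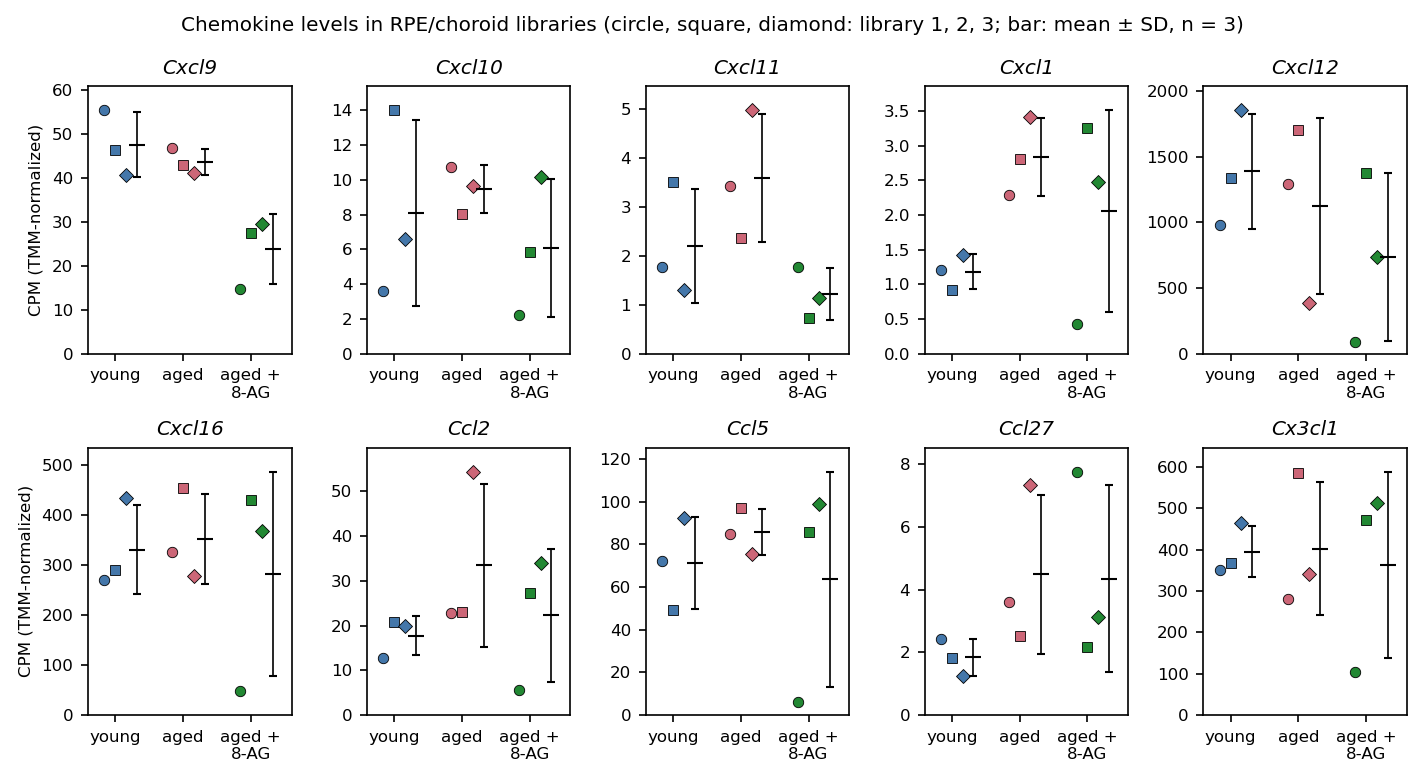
CPM of the 10 chemokines in the 9 RPE/choroid libraries, with 1 marker per library and the mean ± SD of each group beside the points, on linear axes. Cxcl9 lies at 40.7 to 55.4 CPM in the young and aged libraries and at 14.8 to 29.6 CPM in the 8-AG-treated ones.

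Of 18 receptors, 17 passed the filter and none had an unadjusted P under 0.05 between young and aged RPE/choroid. Cxcr3 was at 14.1, 14.7 and 22.3 CPM in the young and 12.7, 34.2 and 16.2 CPM in the aged libraries, Cxcr6 at 10.8 to 12.1 and 8.42 to 21.3 CPM, and Cx3cr1 at 15.8 to 18.9 and 16 to 23 CPM. Cxcr2 was at 0.459 to 0.702 and 0.269 to 0.561 CPM, Cxcr4 at 4.95 to 6.98 and 4.81 to 8.02 CPM, Ackr3 at 62.8 to 94.6 and 36.4 to 72.3 CPM, Ccr1 at 5.25 to 6.54 and 0.940 to 10.2 CPM, Ccr3 at 0.463 to 1.44 and 0.291 to 1.62 CPM, and Ccr10 at 1.81 to 2.31 and 1.15 to 3.32 CPM. The young and aged ranges overlapped for each of these 9 receptors.

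No gene of the other lists passed the test in RPE/choroid. Those with an unadjusted P under 0.05 between aged and young were Ccl7, a monocyte attractant (log2 fold change 0.75, unadjusted P = 0.026), Cxcl6, a further Cxcr2 ligand (1.19, unadjusted P = 0.044), and the protease Adam17 (-0.59, unadjusted P = 0.014). The medians over the 15 interferon signalling genes and the 12 NF-kappaB genes tested were 0.00 and -0.10.

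Across the 9 RPE/choroid libraries, Ccl27 was followed most closely by Fxyd3 (Pearson r = 0.978), Ecel1 (0.975), Chi3l1 (0.971), Matk (0.947) and Aqp11 (0.947), of 12974 genes compared. Its r with Cxcl12 was -0.858. The highest Ccl27 levels were in 8-AG-treated library 1 (7.77 CPM) and aged library 3 (7.35 CPM), against 1.26 to 3.62 CPM in the others. Cxcl12 was lowest in the same libraries, at 91.4 and 389 CPM. Each r therefore leans on these libraries, and r without them was not computed.

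Between 8-AG-treated and untreated aged RPE/choroid, Cxcl9 and Cxcl11 were DEGs, both lower, 2 of 10 chemokines against 1.65% of the 16257 genes tested in either direction and 0.418% downwards. The number with an unadjusted P under 0.05 was also 2, against 1.69% of genes, with edgeR. The median log2 difference of the 10 was -0.52, against 0.01 for all genes, and 9 of 10 were below 0, against 48.4% of genes. Without 8-AG-treated library 1 the median was -0.12, against -0.0082 for all genes, and 6 of 10 were below 0, against 51.2% of genes. Cxcl9 was at 14.8, 27.4 and 29.6 CPM in the treated libraries against 46.9, 43.0 and 41.2 CPM in the untreated, and Cxcl11 at 1.77, 0.723 and 1.14 CPM against 3.42, 2.36 and 4.97 CPM. Neither gene overlapped between the groups, as 1.66% of genes did not in that direction. The log2 difference of Cxcl9 was -0.86 (SE 0.28, unadjusted P = 0.023), and that of Cxcl11 -1.52 (SE 0.53, unadjusted P = 0.029).

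Without 8-AG-treated library 1, Cxcl9 differed by -0.62 (unadjusted P = 0.0090) and Cxcl11 by -1.95 (unadjusted P = 0.013), and both remained DEGs. With libraries that share a label number summed, the unadjusted P was 0.067 for Cxcl9 and 0.043 for Cxcl11. Other libraries decided the count. It was 0 without aged library 1 or without aged library 3, and 1 without aged library 2, 8-AG-treated library 2 or 8-AG-treated library 3. Over these fits, the unadjusted P of Cxcl9 ran from 0.0090 to 0.072 and that of Cxcl11 from 0.013 to 0.098.

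In treated libraries 2 and 3, the T and NK cell sums of 204 and 148 CPM lay within the range of the untreated aged libraries, 126 to 219 CPM. Other sums did not. The surface epithelium sum was 35.4 and 319 CPM, against 19.4 to 26.6 CPM in the untreated aged, the endothelium sum 3340 and 1773 CPM, against 1798 to 2530 CPM, and the mural cell sum 1112 and 1547 CPM, against 644 to 1105 CPM. In these libraries the neutrophil sum reached 75.6 CPM, against 17.4 to 31.9 CPM, and the pigment epithelium sum 18044 CPM, against 8929 to 15951 CPM. The lens sum was 48.3 to 238 CPM over all treated libraries, against 20.9 to 54.1 CPM. The part of composition in these differences was not tested. Cxcl10, the third gene of the cluster, was at 2.20, 5.84 and 10.2 CPM in the treated libraries and overlapped with the untreated (log2 difference -0.63, 95% interval -2.01 to 0.75, and -0.25 without library 1). For the remaining chemokines 8-AG-treated library 1 set much of the spread. Cxcl12 was at 91.4, 1374 and 736 CPM in the treated libraries, Cxcl16 at 48.9, 430 and 369 CPM, Cx3cl1 at 104, 472 and 512 CPM, and Ccl5 at 5.87, 86.0 and 99.0 CPM. Library 1 was below every untreated library for each of these 4 genes. With it, the log2 differences from untreated aged RPE/choroid were -0.62 for Cxcl12, -0.32 for Cxcl16, -0.15 for Cx3cl1 and -0.43 for Ccl5, and without it they were -0.099, 0.17, 0.29 and 0.10. Ccl2, at 5.53, 27.2 and 34.1 CPM, differed by -0.58 with that library and by -0.14 without it. Ccl27, at 7.77, 2.17 and 3.14 CPM, differed by 0.00 with it and by -0.77 without it, and Cxcl1, at 0.428, 3.25 and 2.48 CPM, by -0.46 and 0.01. None of these differences had an unadjusted P under 0.05 in either fit.

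Cxcr3, the receptor shared by Cxcl9 and Cxcl11, was at 1.28, 25.5 and 17.4 CPM in the treated RPE/choroid, against 12.7 to 34.2 CPM in the untreated aged. No receptor had an unadjusted P under 0.05. Of the other lists, Irf7 had one, upwards (log2 difference 0.79, unadjusted P = 0.038, and 0.62, unadjusted P = 0.073, without 8-AG-treated library 1), and no gene passed the test.

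Against young RPE/choroid, with which the aged comparison shares its libraries, Cxcl9 was the one DEG among the 10 in the treated group (log2 difference -0.98, SE 0.30, unadjusted P = 0.019), against 1.99% of the 16215 genes, 0.278% downwards. All 3 treated libraries were below all 3 young ones, as for 2.94% of genes. Without 8-AG-treated library 1 the difference of Cxcl9 was -0.73 (unadjusted P = 0.0071), and Cxcl1 (1.28, unadjusted P = 0.016) and Ccl2 (0.79, unadjusted P = 0.031), at 0.80 and 0.33 with it, became DEGs upwards. Without young library 1 the unadjusted P of Cxcl9 was 0.065, with libraries that share a label number summed 0.056, and with the replicate number as a block 0.052, so that the DEG call was lost in each. Cxcl11 overlapped with the young libraries (-0.83, unadjusted P = 0.19, and -1.22, unadjusted P = 0.087, without treated library 1). With that library and without it, the log2 difference was -0.40 and -0.0044 for Cxcl10, -0.92 and -0.40 for Cxcl12, -0.23 and 0.27 for Cxcl16, -0.16 and 0.38 for Ccl5, 1.26 and 0.53 for Ccl27, and -0.12 and 0.33 for Cx3cl1, none with an unadjusted P under 0.05. The median log2 difference of the 10 was -0.20, against 0.02 for all genes, with 7 of 10 below 0, against 47.2% of genes. Without treated library 1 it was 0.30, against -0.0032 for all genes, with 4 of 10 below 0, against 50.5% of genes.

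**Figure D5:**
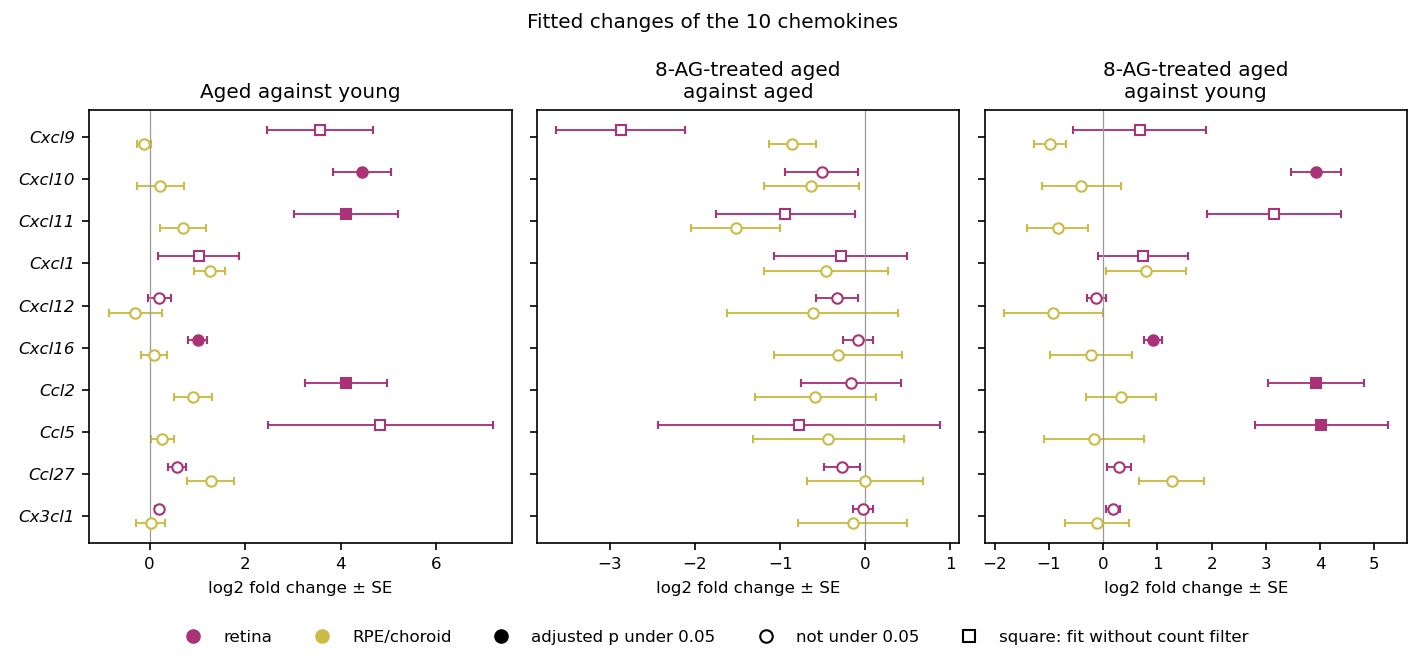
Log2 fold change ± SE of the 10 chemokines in the 3 comparisons, for retina and RPE/choroid, with filled markers for an adjusted p under 0.05 and squares for genes that did not pass the count filter. In retina Cxcl10 is at 4.44 in aged and 3.93 in 8-AG-treated against young, and in RPE/choroid Cxcl9 and Cxcl11 lie at -0.86 and -1.52 in 8-AG-treated against aged.

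Whether the aging change differed between tissues was tested with an interaction term over the 12 young and aged libraries of both tissues. None of the 10 chemokines passed this test with edgeR, while 6 of 10 had an unadjusted P under 0.05, all with the lower change in RPE/choroid. Of the 16792 genes tested, 0.161% passed, 8.25% had an unadjusted P under 0.05 and 6.2% had one with the lower change in RPE/choroid. Of the 6, Cxcl9, Cxcl11, Ccl2 and Ccl5 did not pass the count filter in retina and entered this fit through their counts in the RPE/choroid libraries, and Cxcl10 passed it in retina through the aged libraries, so the count is a description and is not read against these shares. For Cxcl10 the aging change in RPE/choroid minus that in retina was -4.24 on the log2 scale (SE 0.88, 95% interval -6.20 to -2.28, adjusted p = 0.089). It was -3.77 for Cxcl9 (adjusted p = 0.23), -3.58 for Cxcl11 (0.48), -3.30 for Ccl2 (0.39), -4.74 for Ccl5 (0.55) and -0.92 for Cxcl16 (0.47). All but that of Cxcl16 rest on 8 or fewer counts over the 3 young retina libraries. With 1 library left out in turn, the value ran from -7.70 to -2.83 for Cxcl9, -6.09 to -2.93 for Cxcl11, -6.68 to -2.79 for Ccl2 and -7.26 to -1.15 for Ccl5. The lowest value of each came without young retina library 1 (Cxcl9) or 3 (the others), which leaves young retinas with 0 reads, so that its size depends on the prior count of the fit. Without aged retina library 2 the difference of Ccl5 was -1.15 (unadjusted P = 0.43), and the unadjusted P was also over 0.05 for Cxcl11 (0.067) and Cxcl16 (0.068). The 4 others were Cxcl1 (0.19), Ccl27 (0.70), Cxcl12 (-0.51) and Cx3cl1 (-0.18), each with an interval that includes 0. Of the other lists, Socs3 passed this test (-3.51, adjusted p = 0.047).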

How the data were processed

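RNA-seq of retina and RPE/choroid from female Fischer 344 rats was used as the authors deposited it. For retina, the authors deposited RSEM expected counts per gene of 9 libraries, 11.5% of which are not whole; they were rounded. For RPE/choroid, the authors deposited raw read counts per gene of 9 libraries. The submitters' processing notes name Bowtie2 2.1.0, RSEM 1.2.15, edgeR and the build Rnor_6.0, without saying for which tissue. The authors' TMM-normalized signal table paired symbols with retina identifiers and gave Ccr2; their tables of fold changes and P values gave RPE/choroid gene names and no value. Per the labels' protocols, poly-A RNA was selected, with a full-length enrichment step for RPE/choroid. Of 15328 identifiers named in both ways, 90.9% had equal names.

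Each comparison was fitted to its 6 libraries in R 4.3.3 with the edgeR 4.0.16 functions filterByExpr, calcNormFactors (TMM), estimateDisp, glmQLFit with robust=TRUE and glmQLFTest, and Benjamini-Hochberg adjustment ran over all genes tested. The standard error is the absolute log2 fold change divided by the square root of F, and 95% intervals use the test's degrees of freedom. Ratios of summed counts have exact binomial intervals, which cover counting error and not the spread between libraries. For genes below the filter the fit without filter is given. CPM were scaled over the 9 libraries of a tissue, and log2 CPM for Pearson r used a prior count of 2 and genes with a mean of at least 1. Scripts were tested on simulated counts.

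All 10 members are named. Of the lists of receptors, other chemokines, interferon signalling, NF-kappaB signalling and proteases, genes with an adjusted p under 0.05 are named (at most 6 per list), with the members' receptors, and genes with an unadjusted P under 0.05 where no list gene passes; further genes and ranges were added after their values were seen. Members, lists and motifs were chosen with earlier results of these data known. List names without an identifier were left out, and some list genes are counted but not reported here by name. Alternatives were RLE size factors, DESeq2 1.42.0, a replicate block, one fit over all 3 groups, no filter, a minimum of 10 counts per library, libraries sharing a label number summed, and each library left out in turn; leaving out libraries in the fit without filter, and the medians and Irf7 without 8-AG-treated RPE/choroid library 1, were added after seeing the data. Tables and figures used Python 3.11.15, pandas 2.3.3, SciPy 1.17.1 and matplotlib 3.10.9.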

Additional observations from a re-analysis of the deposited data

How the results depend on the processing

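Against the young retina, in both the aged and the treated one, 2 chemokines passed the test and were DEGs, and without the filter these became 4 that passed and 5 DEGs in each, because more members were tested. With at least 10 counts in every library they became 1 and 1, since Cxcl10 was then not tested. All 3 groups in one fit gave 3 that passed and 3 DEGs in each. With 1 library left out, 2 to 3 passed the test and 3 to 5 were DEGs in aged against young retina. In treated against aged retina 0 to 2 were then DEGs, where no filter gave 1. A group of 2 libraries lowers the number of libraries that must reach the count minimum. In aged against young RPE/choroid the 2 DEGs became 0 with all 3 groups in one fit, 1 with libraries sharing a label number summed, and 1 to 3 with 1 library left out. In treated against aged RPE/choroid the 2 became 1 when those libraries were summed and 0 to 2 with 1 left out. In treated against young RPE/choroid the 1 became 2 with DESeq2, 0 when summed and 0 to 3 with 1 left out. For these RPE/choroid changes the cause was not tested.

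Same-numbered libraries did not all deviate together (correlations from -0.32 to 0.25 in retina and -0.65 to 0.74 in RPE/choroid). This check cannot tell whether they share more than a number. With a replicate block, the DEGs in RPE/choroid numbered 1 for aged and 0 for treated against young, and the other counts were the same. Cx3cl1 in aged against young RPE/choroid reversed to -0.037 and Ccl27 in treated against aged to -0.094 with the block.

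The other reversals were of changes that had not passed the test. Ccl27 in treated against aged RPE/choroid was -0.012 without the filter, -0.035 with all groups and -0.21 when libraries were summed, and in aged against young Cxcl16 was -0.11 and Cx3cl1 -0.10 when summed. With 1 library left out, log2 fold changes in retina ran from -0.10 to 0.33 for Cxcl12 in aged against young and from -0.25 to 0.034 in treated against young. In treated against aged retina they ran from -0.82 to 0.018 for Cxcl10, -0.21 to 0.11 for Cxcl16, -0.83 to 0.16 for Ccl2, -0.16 to 0.10 for Cx3cl1, -0.76 to 0.58 for Cxcl1 and -2.32 to 2.73 for Ccl5. In aged against young RPE/choroid they ran from -0.13 to 0.89 for Cxcl10, -0.72 to 0.11 for Cxcl12, -0.13 to 0.32 for Cxcl16 and -0.35 to 0.22 for Cx3cl1. In treated against aged RPE/choroid they ran from -0.96 to 0.0060 for Cxcl1, -0.76 to 0.17 for Cxcl16, -0.90 to 0.10 for Ccl5, -0.77 to 0.55 for Ccl27 and -0.48 to 0.29 for Cx3cl1. In treated against young RPE/choroid they ran from -0.99 to 0.26 for Cxcl10, -0.65 to 0.27 for Cxcl16, -0.11 to 0.79 for Ccl2, -0.63 to 0.38 for Ccl5 and -0.44 to 0.33 for Cx3cl1. The tissue difference ran from -0.29 to 1.1 for Cxcl1 and -0.56 to 0.014 for Cx3cl1. Cxcl10 and Cxcl16 kept their calls against young retina in every alternative in which they were tested.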
